A study of Mus musculus with 24 samples.

Results

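The 9 assays described here measure microRNAs (miRNAs) whose hairpins lie near the genes Meg3 and Rtl1 in the imprinted Dlk1-Dio3 locus of the mouse. They are mmu-miR-127, mmu-miR-136, mmu-miR-337-5p, mmu-miR-370, mmu-miR-431, mmu-miR-433, mmu-miR-434-3p and mmu-miR-673-3p, designed for mouse, and rno-miR-136*, designed for rat and called rat miR-136* below; the prefix of the mouse names is left out from here on. They were chosen by assay name among 584 miRNA assays and represent 8 hairpins by name, because miR-136 and rat miR-136* are named for the opposite strands of 1 hairpin. The samples were muscle stem cells of male C57BL/6 mice aged 8 weeks. Activated cells were collected 36, 60 and 72 h after injury, and quiescent cells, labelled 0 h, were the reference. No transgene, treatment other than injury, or cell sort is named in the labels, and the number of mice is not given in the sources used here. Each of the 4 groups had 3 replicates, run on both an A card and a B card (24 arrays). These are technical replicates according to the series' design text, and the p-values therefore cover the spread between runs and not that between mice.

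The Dlk1-Dio3 locus is expressed from 1 parental chromosome or the other. The protein-coding genes Dlk1, Rtl1 and Dio3 are transcribed from the paternal chromosome, while the non-coding RNAs Meg3, Rtl1 antisense, Rian and Mirg, which host the miRNAs, come from the maternal one. Rtl1 is a gene derived from a retrotransposon, and miRNAs cut from its antisense transcript, such as miR-127, miR-136, miR-431, miR-433 and miR-434, are fully complementary to Rtl1 mRNA and can cleave it. In mouse muscle stem cells, miR-431 is reported to repress Pax7, the transcription factor that marks these cells, and miR-127 to act on the sphingosine-1-phosphate receptor S1pr3.

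The mature sequences below are shown because the results differ between strands of 1 hairpin and between neighbouring hairpins. They were taken from RefSeq (GRCm38.p6), all on the plus strand of chromosome 12, in genomic order, with the seed (bases 2 to 8) in capitals. Names without an arm were matched to an arm by the older naming, in which the starred assay is the opposite strand. The assays' own probe sequences were not used here.
miR-673-3p: uCCGGGGCugaguucugugcacc
miR-337-5p: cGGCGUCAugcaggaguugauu
miR-431 (5p): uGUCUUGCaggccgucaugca
miR-433 (3p): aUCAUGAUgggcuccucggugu
miR-127 (3p): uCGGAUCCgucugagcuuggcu
miR-434-3p: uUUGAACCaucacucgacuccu
miR-136 (5p): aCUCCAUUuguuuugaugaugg
miR-136-3p of the mouse, in place of the rat strand: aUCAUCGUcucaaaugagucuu
miR-370 (3p): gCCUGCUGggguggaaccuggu
The 9 seeds are all different, so no pair of these miRNAs shares a seed. For 3 of the hairpins the opposite strand was also measured, and its sequence is given because the strands are compared further on.
miR-673-5p: cUCACAGCucugguccuuggag
miR-337-3p: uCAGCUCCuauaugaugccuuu
miR-434-5p: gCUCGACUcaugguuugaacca
The hairpins span 46.35 kb. The first is miR-673, whose 3p strand lies at chr12:109572044-109572066. The miR-337 (5p strand at chr12:109585818-109585839), miR-431 (chr12:109590459-109590479), miR-433 (chr12:109591781-109591802), miR-127 (chr12:109592888-109592909), miR-434 (3p strand at chr12:109594565-109594586) and miR-136 (5p strand at chr12:109595331-109595352) hairpins follow. These 7 lie inside the annotated interval of Rtl1. The miR-370 hairpin (mature strand at chr12:109618305-109618326) lies downstream, inside the interval of Rian.

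The arrays were TaqMan real-time PCR cards, which report a threshold cycle (Ct), the number of PCR cycles needed to reach a set fluorescence. A level is given here as the mean Ct of U6 small nuclear RNA on the same array minus the Ct of the assay. This is a log2 scale on which a step of 1 is a 2-fold change, and a value closer to 0 means more RNA. An assay was detected on an array when all its spots had a Ct below 35. Each A card detected between 181 and 212 assays and each B card between 89 and 120, and the U6 Ct lay between 14.7 and 15.7. The arrays give no read depth, and their number limits the precision. Levels of different assays also depend on each assay's efficiency, so orders between assays are descriptive.

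The labelled cell type was checked against marker miRNAs. The 5 muscle miRNAs (miR-1, miR-133a, miR-133b, miR-206 and miR-489) were detected on 3 of 3 arrays in every group. Their summed level was -4.00 to -3.66, -3.34 to -3.23, -1.77 to -1.75 and -1.02 to -0.94 in cells of 0, 36, 60 and 72 h. Within this list miR-489 fell, with log2 changes against 0 h of -1.4, -4.9 and -6.7 at 36, 60 and 72 h, while the others had positive changes. Markers of other cells were present as well. The leukocyte list (miR-142-3p, miR-142-5p, miR-150 and miR-223) had 3, 4, 3 and 3 of 4 assays detected on 3 of 3 arrays, and its summed level was -5.54 to -5.50, -4.05 to -3.98, -7.83 to -7.71 and -8.26 to -8.06 at 0, 36, 60 and 72 h. Its members did not move together. The log2 change against 0 h at 36, 60 and 72 h was 8.54, 5.91 and 5.61 for miR-142-3p and 7.65, 4.06 and 3.81 for miR-223, but 0.41, -3.67 and -4.21 for miR-150, and miR-142-5p was not detected at 0 h. The 2 endothelial miR-126 strands summed to -4.52 to -4.44, -2.29 to -2.28, -6.28 to -6.19 and -6.42 to -6.40 at these times. The 4 smooth muscle and mesenchymal assays (miR-143, miR-145, miR-199a-3p and miR-214) summed to -3.23 to -3.11, -2.76 to -2.70, -6.16 to -6.13 and -6.82 to -6.75. They did not all move together either. At 36 h the log2 change against 0 h was -0.33 for miR-145 but 2.57, 3.19 and 1.41 for miR-143, miR-199a-3p and miR-214. At 60 h it was 0.19 for miR-199a-3p but -2.09, -4.23 and -1.48 for miR-143, miR-145 and miR-214. The erythroid miR-451 was not detected at 0 h, was detected on 3 of 3 arrays at 36 h (-14.1 to -13.0) and at 60 h (-18.8 to -16.1), and on 1 array at 72 h (-19.7). The summed levels of the leukocyte, endothelial and smooth muscle lists were higher at 36 h and lower at 60 and 72 h than at 0 h, while miR-142-3p, miR-223 and miR-451 were above their 0 h level or newly detected at the later times. Markers of other cells thus moved with the samples compared below, and their part in the results was not tested. In bulk RNA, fewer cells of a type and less RNA per cell cannot be told apart.

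In quiescent cells all 9 assays were detected on 3 of 3 arrays. At 60 h, 4 of them were still measured, at levels 8.81-fold to 32.1-fold lower than at 0 h. The other 5 gave no Ct within 40 cycles on any array at 60 or 72 h. The plot of levels by array shows both courses.

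**Figure D1:**
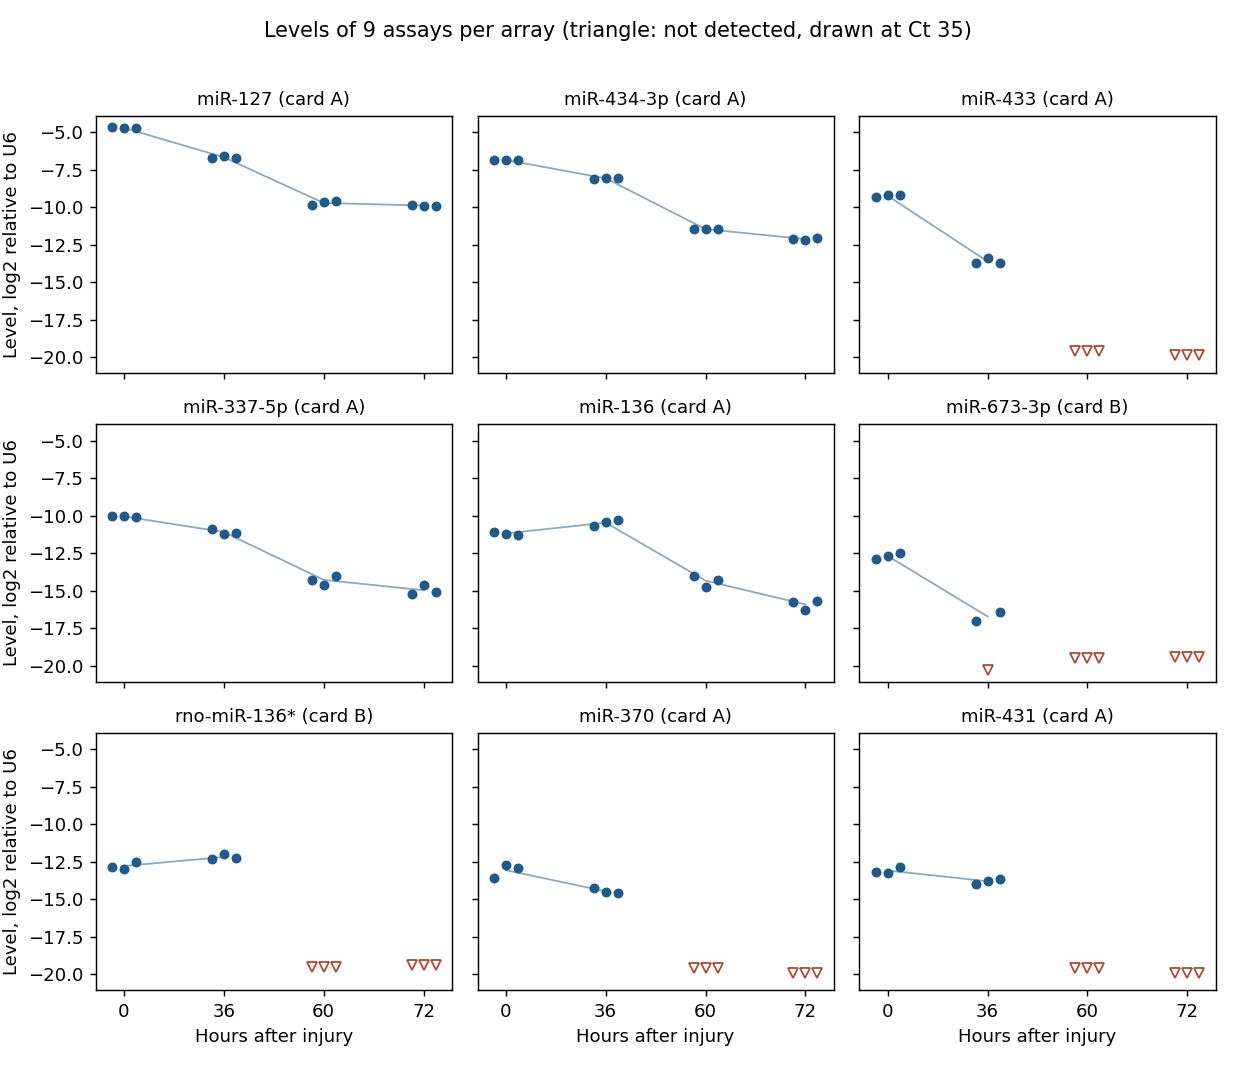
Level of each of the 9 assays relative to U6 (log2, y axis) on every array at 0, 36, 60 and 72 h after injury (x axis, evenly spaced and not to scale); points are single arrays, side by side in replicate order, lines join the group means, and open triangles mark arrays on which the assay was not detected, drawn at the level of Ct 35. miR-127, miR-434-3p, miR-337-5p and miR-136 were measured at every time, while the other 5 assays have no detected array at 60 and 72 h.

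miR-127 had the highest level of the 9 assays at every time. The 3 arrays read -4.68, -4.73 and -4.74 at 0 h and -6.70, -6.60 and -6.72 at 36 h, then -9.87, -9.68 and -9.62 at 60 h and -9.85, -9.92 and -9.91 at 72 h. The groups at 0, 36 and 60 h were far apart, and those at 60 and 72 h overlapped. miR-434-3p, the next in order, read -6.89, -6.83 and -6.85 at 0 h and -8.11, -8.08 and -8.04 at 36 h, then -11.45, -11.47 and -11.48 at 60 h and -12.13, -12.19 and -12.07 at 72 h. No group of miR-434-3p overlapped another.

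miR-337-5p, from the hairpin nearest to that of miR-673, followed at lower levels. Its values were -10.05, -10.03 and -10.06 at 0 h and -10.87, -11.24 and -11.16 at 36 h, then -14.26, -14.59 and -13.99 at 60 h and -15.20, -14.64 and -15.07 at 72 h. Every array at 36 h was below every array at 0 h, and the 60 and 72 h arrays were lower again without overlapping each other. miR-136 took another course, with -11.06, -11.19 and -11.31 at 0 h and -10.69, -10.41 and -10.29 at 36 h, then -13.99, -14.74 and -14.26 at 60 h and -15.78, -16.26 and -15.72 at 72 h. Its 36 h arrays were above all 0 h arrays, and its 60 h and 72 h arrays were below them.

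Of the assays that were lost, miR-433 had the highest level at 0 h. It stood at -9.32, -9.19 and -9.22 in quiescent cells and at -13.74, -13.36 and -13.74 at 36 h, and it gave no Ct later. miR-673-3p, measured in 2 spots per array, stood at -12.86, -12.70 and -12.49 at 0 h. At 36 h it stood at -16.99 in replicate 1 and -16.44 in replicate 3, and in replicate 2 one spot had a Ct of 30.9 and the other none, so that array did not count as detected. Both assays were thus far lower at 36 h, with no overlap between the groups.

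The other 3 lost assays differed by less than 3-fold between 36 h and 0 h. miR-370 stood at -13.57, -12.69 and -12.93 at 0 h and -14.28, -14.55 and -14.59 at 36 h, and miR-431 at -13.19, -13.24 and -12.83 at 0 h and -13.99, -13.78 and -13.64 at 36 h. Rat miR-136* stood at -12.82, -13.01 and -12.53 at 0 h and -12.31, -11.97 and -12.28 at 36 h. The 36 h arrays lay below those of 0 h for miR-370 and miR-431 and above them for rat miR-136*. At 0 h the ranges of miR-673-3p, rat miR-136*, miR-370 and miR-431 overlapped, so these 4 had no order, whereas the 5 assays above them (miR-127, miR-434-3p, miR-433, miR-337-5p and miR-136, in that order) did not overlap. At 36 h the ranges of miR-433 and miR-431 overlapped, and at 60 h those of miR-337-5p and miR-136.

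The comparison of 36 h with 0 h asked how far these miRNAs had moved early after injury. Of the 9 assays, 6 were lower and 0 higher, where an assay is called at an adjusted p under 0.05 and a change of at least 2-fold. Over all 272 assays tested, 12.1% were called lower and 44.1% higher, and the median log2 change was 0.82, against -1.22 for the 9 assays. miR-433 had the lowest change of the 272 assays and miR-673-3p the next. miR-433 was 20.7-fold lower at 36 h (log2 change -4.37 ± 0.12 SE, limma adjusted p = 6.54e-07, n = 3 and 3 arrays). miR-673-3p was 16.3-fold lower (-4.03 ± 0.24, adjusted p = 2.37e-05), with 2 arrays at 36 h and 3 at 0 h. miR-127 was 3.87-fold lower (-1.95 ± 0.07, adjusted p = 2.28e-09), miR-370 was 2.66-fold lower (-1.41 ± 0.25, adjusted p = 0.00276), miR-434-3p was 2.33-fold lower (-1.22 ± 0.05) and miR-337-5p was 2.06-fold lower (-1.05 ± 0.18). The call of miR-337-5p was lost without replicate 2 of the 36 h group (-0.97) and with snoRNA135 in place of U6 (-0.83).

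The remaining 3 assays were not called at 36 h because their changes were under 2-fold. miR-431 had a log2 change of -0.71 ± 0.15 (adjusted p = 0.00603). Positive values were found for miR-136, 0.73 ± 0.21 (adjusted p = 0.00872), and for the rat miR-136* assay, 0.60 ± 0.19 (adjusted p = 0.0231). The sign of these values depended on the normalizer: miR-136 was at -0.57 with the global mean, rat miR-136* at -0.18 with the global mean and -0.43 with Y1, and miR-431 at 0.16 with snoRNA202. With Y1 and with the global mean, miR-431 instead lay more than 2-fold below its 0 h level.

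The other control RNAs of the cards did not hold a constant ratio to U6. On card A the log2 change relative to U6 at 36, 60 and 72 h against 0 h was -0.88, -2.40 and -3.05 for snoRNA202. It was -0.22, -0.34 and -0.87 for snoRNA135 and 0.65, 0.11 and -0.32 for Y1. The median change of all tested assays at 36, 60 and 72 h was 0.82, -0.37 and -0.77 relative to U6. Relative to snoRNA202 it was 1.74, 2.08 and 2.04, and relative to the mean of the assays detected on all arrays of a card (the global mean) -0.36, -0.30 and -0.10. miR-127, miR-433 and miR-673-3p were called lower at 36 h with each of the 5 normalizers. For miR-127 the log2 change at 36 h ranged between -3.24 with the global mean and -1.08 with snoRNA202. With snoRNA202 the 36 h calls of miR-434-3p (-0.34), miR-337-5p (-0.17) and miR-370 (-0.53) were lost, miR-136 (1.60) and rat miR-136* (1.71) were called higher, and the 60 h call of miR-136 (-0.74) was lost. The plot of changes by normalizer sets these values side by side.

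**Figure D2:**
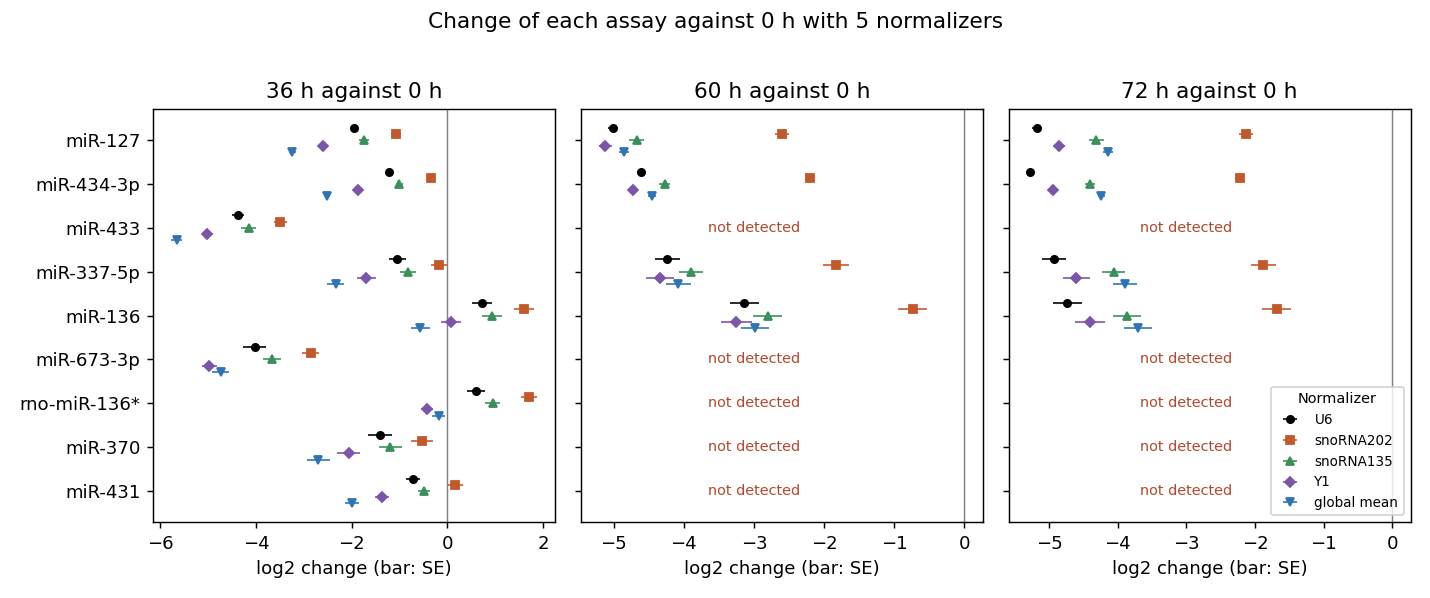
log2 change of each assay (x axis) against 0 h at 36, 60 and 72 h, with U6, snoRNA202, snoRNA135, Y1 or the global mean of the card as the normalizer; points are limma estimates and bars their SE, from 3 arrays per group (2 for miR-673-3p at 36 h). miR-433 and miR-673-3p lie lowest at 36 h with every normalizer, and snoRNA202 places each assay furthest to the right.

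At 60 h the 4 assays still measured were all called lower than at 0 h, and of the 250 assays tested 36.4% were called lower and 28% higher. The decrease was 32.1-fold for miR-127 (-5.01 ± 0.07, adjusted p = 1.19e-12), 24.4-fold for miR-434-3p (-4.61 ± 0.05), 18.8-fold for miR-337-5p (-4.23 ± 0.18) and 8.81-fold for miR-136 (-3.14 ± 0.21, adjusted p = 1.82e-07). The median of the 4 was -4.42, against -0.37 for all assays tested. These 4 had passed the requirement of a Ct in both groups and do not stand for all 9.

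The 5 assays without a Ct at 60 h can be given only as bounds, with the undetected group set to Ct 35. At 60 h miR-433 was lower than at 0 h by at least 1318-fold. The bound was at least 114-fold for miR-673-3p, 106-fold for rat miR-136*, 93.4-fold for miR-370 and 91.8-fold for miR-431. Over all assays detected on 3 of 3 arrays at 0 h, 15 of 259 (5.79%) had no Ct below 35 at 60 h, and 5 of these 15 are among the 9 assays; at 72 h the share was 6.18%, with the same 5 of the 9. At 36 h the mean Ct of the 5 assays had been 26.9 for rat miR-136*, 28.5 for miR-433, 28.7 for miR-431, 29.4 for miR-370 and 31.4 for miR-673-3p (2 arrays). Of the 8 assays detected on 3 of 3 arrays at 36 h, 4 had no Ct at 60 or 72 h. Over all 314 assays so detected, 22 had no Ct at 60 h and 19 had none at 72 h. The shares without a Ct below 35 were 8.92% and 7.32%. Compared with 36 h, rat miR-136* was at least 161-fold lower at 60 h. The same bound was at least 63.7-fold for miR-433, 56.0-fold for miR-431 and 35.1-fold for miR-370. The size of such a bound is set by the level at 36 h, so the bounds give no order of the decreases. No bound is given for miR-673-3p in this step, because it was detected on 2 of 3 arrays at 36 h.

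The 4 assays measured at both times were also lower at 60 h than at 36 h, in a comparison where 49.5% of 279 assays were called lower and 5.38% higher. The decrease was 14.6-fold for miR-136 (-3.87 ± 0.21), 10.5-fold for miR-434-3p (-3.39 ± 0.05), 9.12-fold for miR-337-5p (-3.19 ± 0.18) and 8.30-fold for miR-127 (-3.05 ± 0.07). miR-136 therefore had a measured change well short of the bound of 161-fold for the rat miR-136* assay. The 2 assays sit on different cards, and the difference between them was not tested. Which RNA the rat assay reads in mouse cells was not tested either.

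At 72 h the same 4 assays were lower than at 0 h by similar amounts, with 45.9% of 244 assays called lower and 20.9% higher. miR-434-3p was 38.6-fold lower (-5.27 ± 0.05), miR-127 36.1-fold (-5.18 ± 0.07), miR-337-5p 30.4-fold (-4.92 ± 0.18) and miR-136 26.5-fold (-4.73 ± 0.21). The 5 undetected assays were at least 1596-fold (miR-433), 113-fold (miR-370), 111-fold (miR-431), 105-fold (miR-673-3p) and 97.6-fold (rat miR-136*) lower than at 0 h. The 2 cards differed at this time, with a median change of -1.37 over the 166 assays of card A and -0.28 over the 78 of card B, and all 4 measured assays are on card A.

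Between 60 and 72 h the direction of 3 of these 4 assays depended on the normalizer. Only miR-136 was called, 3.01-fold lower at 72 h (-1.59 ± 0.21, adjusted p = 6.69e-05), where 35.8% of 265 assays were called lower and 0.755% higher, and its call was lost with the global mean (-0.72) and with snoRNA202 (-0.95). The change of miR-337-5p was -0.69 ± 0.18 and that of miR-434-3p was -0.66 ± 0.05, both under 2-fold, and both were positive with the global mean (0.19 and 0.21). For miR-127 the change was -0.17 ± 0.07 (adjusted p = 0.0526), and its sign was positive with each of the other 4 normalizers (0.26 to 0.71). Against 36 h, all 4 were lower at 72 h (-5.46 for miR-136 to -3.22 for miR-127), with 69.3% of 270 assays called lower and 4.07% higher, and miR-136 had the lowest change of all 270. The call of miR-127 at 72 h against 36 h was lost with the global mean (-0.90).

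Ratios between assays of 1 array need no normalizer, and they were used to ask whether the members moved equally. Relative to miR-127 on the same array of card A, 5 of 6 assays had a different change at 36 h (limma, adjusted p under 0.05), and so had 92.6% of 176 assays. miR-136 was 6.40-fold higher relative to miR-127 at 36 h than at 0 h (log2 2.68 ± 0.23, adjusted p = 5.79e-07), miR-431 2.36-fold (1.24 ± 0.17), miR-337-5p 1.88-fold (0.91 ± 0.20) and miR-434-3p 1.66-fold (0.73 ± 0.10). miR-433 was 5.34-fold lower relative to miR-127 (-2.42 ± 0.12, adjusted p = 1.64e-06). For miR-370 the difference of 0.54 ± 0.26 had an interval of -0.10 to 1.19 and did not pass (adjusted p = 0.0905), although without replicate 2 of the 0 h group it did (0.73, adjusted p = 0.0381). Relative to miR-127, the neighbouring hairpins of miR-431 and miR-433 thus gave changes of opposite sign.

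For the 3 assays still measured, the estimated differences from miR-127 were smaller at the later times. Between 36 and 60 h the ratio to miR-127 changed by -0.81 ± 0.23 for miR-136 and -0.34 ± 0.10 for miR-434-3p. For miR-337-5p the step was -0.14 ± 0.20 (limma adjusted p = 0.534), so a smaller difference at 60 h was not shown for it. miR-433, miR-431 and miR-370 gave no Ct at 60 and 72 h and could not be tested. Their bounds at 60 h against 0 h (log2 -10.36, -6.52 and -6.55 or lower) lay below the -5.01 of miR-127. At 60 h, 3 of 3 assays differed from miR-127 (97.6% of 167 assays did). The log2 values were 1.87 ± 0.23 for miR-136, 0.77 ± 0.20 for miR-337-5p and 0.40 ± 0.10 for miR-434-3p. At 72 h, 0 of 3 passed, while 94.5% of 165 assays did. The values at 72 h were 0.44 ± 0.23 for miR-136 (95% interval -0.06 to 0.95, unadjusted p = 0.0799, adjusted p = 0.0835), 0.25 ± 0.20 for miR-337-5p (-0.19 to 0.69, adjusted p = 0.236) and -0.10 ± 0.10 for miR-434-3p (-0.31 to 0.12, adjusted p = 0.343). None of the 3 had an unadjusted p under 0.05 there, and these intervals leave room for a difference of up to 0.95 for miR-136. Without replicate 2 of the 72 h group miR-136 did pass (0.60 ± 0.24, adjusted p = 0.0369).

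**Figure D3:**
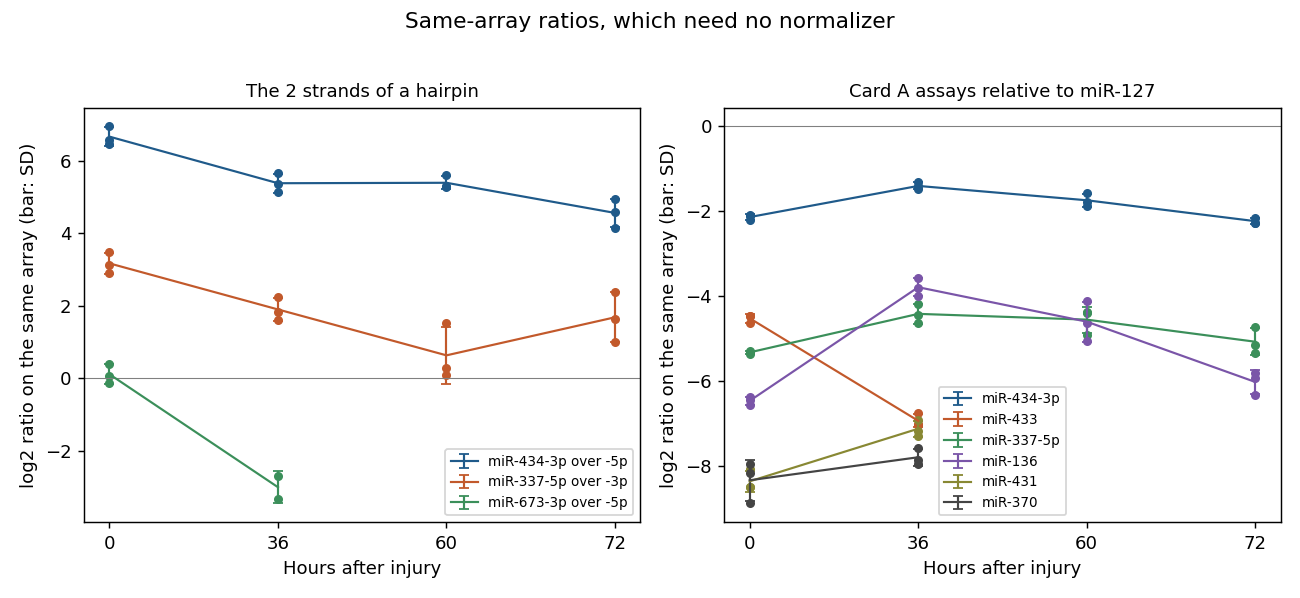
Left, log2 ratio of the named strand to the opposite strand of its hairpin on the same array; right, log2 ratio of 6 assays of card A to miR-127 on the same array; the x axis gives hours after injury, evenly spaced and not to scale, points are single arrays, lines join means and bars are SD (n = 3 arrays, 2 for miR-673 at 36 h). The ratio of miR-136 to miR-127 is 6.40-fold higher at 36 h than at 0 h, and that of miR-433 is 5.34-fold lower.

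For 3 hairpins both strands were measured on the same array. In each, the ratio of the strand among the 9 assays to the opposite strand was lower in the later groups that measured it than at 0 h, without overlap. Strand ratios of other hairpins on the cards were not computed, so a lower ratio cannot be called particular to these 3. The miR-434-3p strand exceeded miR-434-5p by 6.66 ± 0.25, 5.37 ± 0.26, 5.39 ± 0.18 and 4.56 ± 0.39 (log2 ratio, SD, n = 3) in cells of 0, 36, 60 and 72 h, or 101-fold, 41.5-fold, 41.8-fold and 23.5-fold. The miR-337-5p strand exceeded miR-337-3p by 3.17 ± 0.30, 1.90 ± 0.32, 0.63 ± 0.78 and 1.68 ± 0.69 at the same times. miR-673-3p and miR-673-5p were nearly level at 0 h (0.11 ± 0.27, n = 3), and at 36 h the level of miR-673-3p was 0.125 times that of miR-673-5p (SD of the log2 ratio 0.45, n = 2), with log2 ratios of -3.32 and -2.69. With 3 arrays against 3 the exact two-sided permutation test cannot go below p = 0.1, which it gave for miR-434 and miR-337 at every time, and it gave p = 0.2 for miR-673 at 36 h.

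Of the opposite strands, miR-434-5p and miR-337-3p were detected on 3 of 3 arrays at 60 h and miR-673-5p on 2 of 3. miR-673-5p was not called at 36 h (log2 change against 0 h of -0.82) and was 17.4-fold lower at 60 h (-4.12 ± 0.33, n = 2 arrays at 60 h and 3 at 0 h), where miR-673-3p gave no Ct. miR-434-5p was 10.1-fold lower at 60 h (-3.34 ± 0.24) and miR-337-3p 3.25-fold (-1.70 ± 0.37). The mouse assays miR-127*, miR-136*, miR-431* and miR-433* were detected on 0 of 12 arrays each, so the rat miR-136* assay gave a signal at 0 and 36 h where the mouse assay of the same name was not detected. The rat mature sequence was not used here.

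Along the chromosome, assays that were lost and assays that were still measured were interspersed. In order, miR-673-3p was lost, miR-337-5p measured, miR-431 and miR-433 lost, miR-127, miR-434-3p and miR-136 measured, and rat miR-136* and miR-370 lost. The neighbouring hairpins of miR-433 and miR-127 start 19.7 and 20.9 kb from that of miR-673, and their assays were at least 1318-fold and 32.1-fold lower at 60 h than at 0 h. The guanine and cytosine content of the 4 lost mouse strands was 54.5 to 68.2%, against 36.4 to 59.1% for the 4 measured ones, with overlapping ranges. The mouse miR-136-3p strand, given in place of the lost rat miR-136*, had 36.4%.

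**Figure D4:**
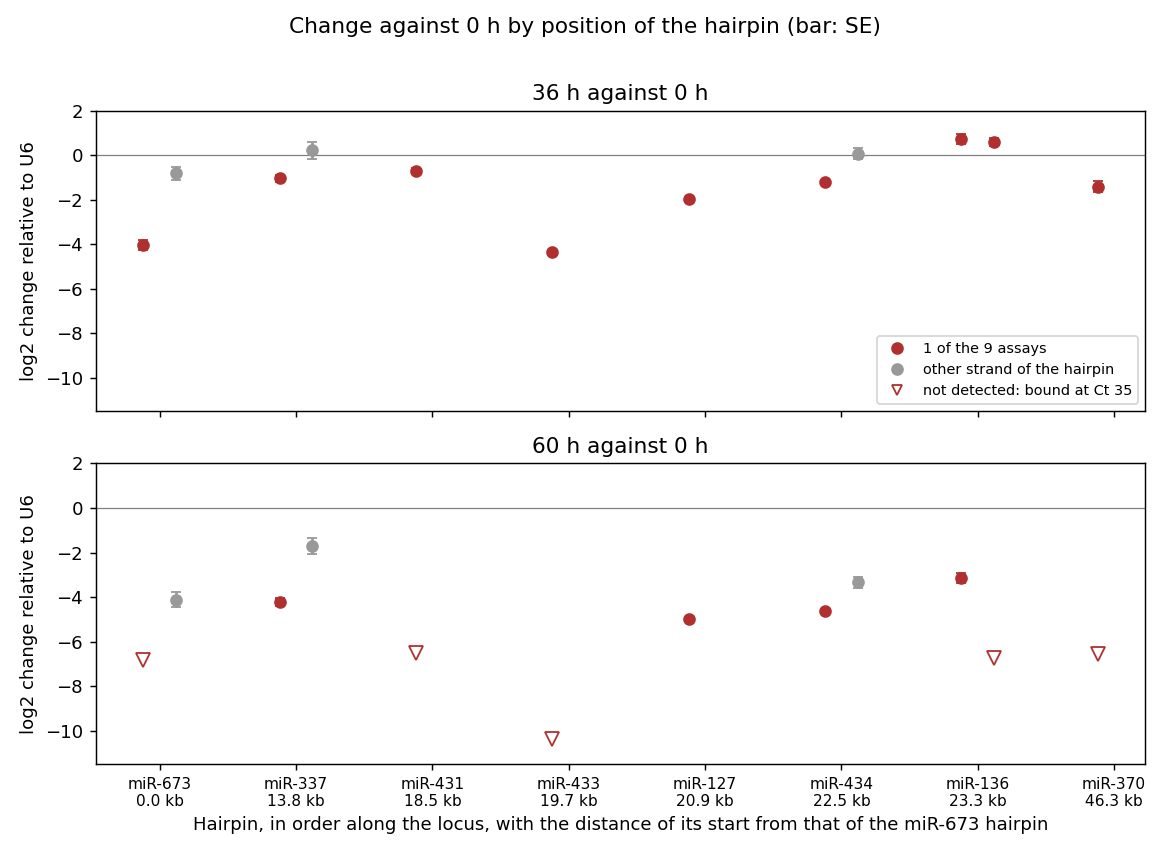
log2 change against 0 h (y axis) at 36 h and 60 h for each assay, ordered along the locus by hairpin (x axis, evenly spaced; the distance of each hairpin's start from that of miR-673 is printed below its name); red points are the 9 assays, grey points the opposite strands of 3 hairpins, bars are SE, and open triangles are bounds for assays without a Ct at 60 h, so the true value lies at or below the triangle. Rat miR-136* is drawn at the miR-136 hairpin. Triangles and measured points are interspersed along the locus.

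The other assays of the locus give the setting for these values. Near Meg3 and Rtl1 the cards hold 14 further assays, of which 10 were detected on no array, and 3 could be tested, the opposite strands described above. In the distal part of the locus, transcribed with Rian and Mirg, the cards hold 52 assays, of which 24 were detected on no array. At 36 h, 9 of 24 tested distal assays were lower and 2 higher (median -0.67), and 0 of the 3 other proximal assays were called (median 0.06). The distal decreases at 36 h were led by miR-485* (-2.75 ± 0.16), miR-329 (-2.28 ± 0.54) and miR-543 (-2.05 ± 0.32), and the increases were miR-544 (2.13 ± 0.42) and miR-376a* (1.52 ± 0.34), both near the detection limit at 0 h, with levels of -19.2 and -18.1.

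At 60 h, 15 of 18 distal and 3 of 3 other proximal assays were called lower and 0 higher, with medians of -3.14 and -3.34. The lowest were miR-382 (-6.48 ± 0.24, 2 arrays at 60 h), miR-485* (-5.47 ± 0.16) and miR-667 (-5.24 ± 0.13). At 72 h, 17 of 17 distal and 3 of 3 other proximal assays were lower, led by miR-543 (-5.92 ± 0.32), miR-667 (-5.07 ± 0.13) and miR-329 (-4.82 ± 0.61, 2 arrays at 72 h). Of 25 distal assays detected on 3 of 3 arrays at 0 h, 5 had no Ct below 35 at 60 h, and of the 3 other proximal assays 0 did. These later comparisons share the 0 h arrays, so the counts are not independent of each other.

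**Figure D5:**
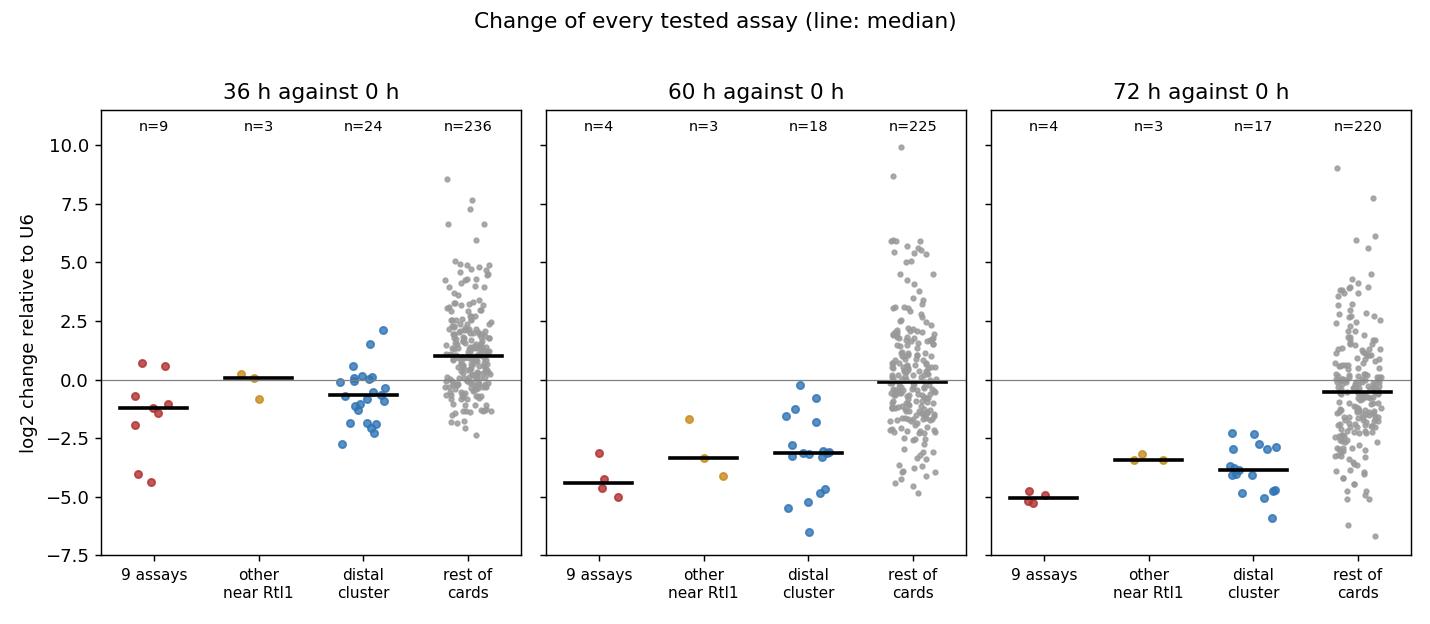
log2 change against 0 h relative to U6 (y axis) of every tested assay at 36, 60 and 72 h, in 4 classes: the 9 assays, the other assays near Rtl1, the distal cluster and the rest of the cards; each point is 1 assay, black lines are medians, and n is the number tested. At 60 and 72 h only 4 of the 9 assays could be tested, and all of them lie below -3.

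The profile most like that of miR-127 over the 12 arrays of card A was that of miR-667, a distal miRNA of the same locus. The root mean square distance between the profiles, each taken relative to its own 0 h mean, was 0.19 for miR-667 (log2). miR-434-3p (0.43) came next, followed by miR-495 (0.55), also distal, miR-337-5p (0.64), miR-328 (0.67), miR-708 (0.67) and miR-676 (0.74). The last 3 are not on the list of the locus. miR-136 ranked 22nd with a distance of 1.67, a value that includes its separate course at 36 h.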

How the data were processed

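RNA was measured on 24 TaqMan Rodent MicroRNA arrays (4 groups, 3 technical replicates, cards A and B) over 40 cycles, per the labels. Ct values per spot, on a log2 scale, were deposited by the authors without normalization, per the file headers. The authors also deposited tables with fold changes, linear ratios made from dCt. Their dCt constant equalled the group's mean U6 Ct within 0.001, except on card B at 36 h (16.97 against a U6 Ct of 14.7). These ratios were not used as results, and 48 per-sample columns of those tables were not used, among them a last time point given as day 3.5. The labels give 72 h for the last group and were followed here, and this conflict over its time was not settled. The card type was read from the assay names. For the Ct software and its threshold, no source used here gives a name or value.

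Levels were the mean Ct of the 4 U6 spots of an array minus Ct, averaged over the spots of an assay, and undetected values (Ct of 35 or more, or none) were left out. Assays detected on at least 2 arrays of both groups entered limma 3.58.1 (R 4.3.3), in 1 fit per card over its 12 arrays, with Benjamini-Hochberg adjustment over both cards. The fit was tested on simulated data. Same-array ratios to miR-127 were tested likewise on card A without a minimum fold, and strand ratios with an exact permutation test (SciPy 1.17.1). The 9 assays and all lists were chosen with earlier results of these data known. Named were all 9 assays, the 5 other assays nearest to miR-127 in profile, and the 3 largest called changes each way against 0 h in the locus list. Alternatives were other normalizers, detection limits, undetected values at Ct 35, no minimum fold, a replicate block and leaving out replicates.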

Additional observations from a re-analysis of the deposited data

How the results depend on the processing

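The count of the 9 assays called lower was 6, 4 and 4 at 36, 60 and 72 h against 0 h, 4 and 4 at 60 and 72 h against 36 h, and 1 at 72 h against 60 h. With snoRNA202 it was 3 at 36 h, and the 60 h call of miR-136 was lost as well. The 36 h call of miR-337-5p was lost with snoRNA135, and with Y1 and the global mean the 36 h decrease of miR-431 exceeded 2-fold. The count against 0 h therefore depended on the normalizer. With undetected values at Ct 35, where only assays never detected were left out, it was 9 in all 4 comparisons of 60 or 72 h with 0 or 36 h, because the 5 undetected assays were then tested. For 72 h against 60 h it was 3 with no minimum fold and 0 with the global mean or snoRNA202. Leaving out 1 replicate gave 5 to 6 at 36 h against 0 h, 4 in each of the comparisons of 60 or 72 h with 0 or 36 h, and 1 for 72 h against 60 h. The count that differed from miR-127 was 5, 3 and 0 at 36, 60 and 72 h. With undetected values at Ct 35 it was 6 at 60 h and 3 at 72 h, and leaving out 1 replicate gave 5 to 6, 3, and 0 to 1 (1 without replicate 2 of the 72 h group). Leaving out replicate 1 or 3 of the 36 h group leaves 1 array for miR-673-3p, which was then not tested.

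Directions reversed in 10 of 432 recomputed single-assay values. They were 36 h against 0 h for miR-136 with the global mean (-0.57), rat miR-136* with the global mean (-0.18) and Y1 (-0.43) and miR-431 with snoRNA202 (0.16). For 72 h against 60 h they were miR-127 with the global mean (0.71), snoRNA135 (0.36), snoRNA202 (0.47) and Y1 (0.26), and miR-337-5p (0.19) and miR-434-3p (0.21) with the global mean. All 10 arose when U6 was replaced by another normalizer, and why the normalizers differ was not tested. The split of all assays into higher and lower was 120 and 33 at 36 h against 0 h with U6, 180 and 6 with snoRNA202, 139 and 24 with snoRNA135, 75 and 68 with Y1 and 59 and 89 with the global mean, and 55 were lower with no minimum fold. At 60 h it was 70 and 91 with U6 and 179 and 20 with snoRNA202, and at 72 h 51 and 112 with U6, 166 and 24 with snoRNA202, 65 and 85 with snoRNA135 and 72 and 79 with the global mean. With undetected values at Ct 35, 79 were higher at 72 h. For 60 h against 36 h the split was 15 and 138 with U6, 75 and 64 with the global mean and 94 and 54 with snoRNA202, and 46 were higher with Y1 and 45 with no minimum fold. For 72 h against 36 h it was 11 and 187 with U6, 76 and 68 with the global mean and 70 and 69 with snoRNA202, and 20 or 21 were higher with Y1, no minimum fold or undetected values at Ct 35. For 72 h against 60 h it was 2 and 95 with U6, 9 and 37 with snoRNA202, 8 and 51 with snoRNA135, 25 and 17 with the global mean and 23 and 177 with no minimum fold. There 7 were higher with Y1, 5 with undetected values at Ct 35, 1 with a Ct limit of 32, 0 without replicate 2 of the 60 h group and 4 without replicate 2 of the 72 h group.

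The replicate number as a block gave the same counts, 6, 4 and 4 against 0 h, and changed no call of the 9 assays. The numbers did not pair the samples: deviations of same-numbered arrays from their group means correlated at -0.43 to 0.49 (36 pairs, median -0.0055), and those of differently numbered arrays at -0.42 to 0.49. Signal limits the low assays, since levels of Ct 35 or later give only bounds.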

Other observations

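In the authors' deposited table the 36 h values of card B carry another constant than U6, which shifts both card B members of the group. The authors' deposited table gives rat miR-136* as 7.54-fold higher at 36 h than at 0 h, while the U6 levels used here give a log2 change of 0.60. For the 2 spots of miR-673-3p the authors' deposited table gives ratios of 0.333 and 0.211 at 36 h over 0 h. Spot 2 gave no Ct in replicate 2 at 36 h, so the second ratio includes an undetected spot. The U6 levels used here give miR-673-3p a log2 change of -4.03, with 2 arrays at 36 h. The authors' constant was 2.26 cycles above the mean U6 Ct of the card B arrays at 36 h.

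For undetected spots the authors' deposited table uses a Ct of 40. With that value, the authors' deposited table gives miR-433 a ratio of 2.4e-05 at 60 h over 0 h, where the bound at Ct 35 is at least 1318-fold lower.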
